A study of Mus musculus with 3 samples.

Results

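Semaphorins are a family of guidance ligands, and plexins and neuropilins are their receptors. The genes described here were chosen by name: protein-coding genes whose symbol begins with Sema or Plxn, together with Nrp1 and Nrp2. Of 41388 genes listed in the deposited tables, of which 21474 are protein coding, 31 met this rule: 20 semaphorins, 9 plexins and 2 neuropilins. Their RNA was measured in cells sorted by fluorescence from dorsal root ganglia, the sensory ganglia that flank the spinal cord, of mouse embryos at 14.5 days post coitum. The embryos were C57BL/6 and carried a Ret-EGFP reporter, written Tg(Ret-EGFP)SJ in the genotype label, whereas the series text describes heterozygotes with EGFP knocked into Ret. Which of these holds could not be settled here, so every library may lack 1 working Ret allele. The reporter follows transcription of Ret, through which GDNF and its relatives signal, and marks all cells that transcribe it rather than 1 type of neuron. All libraries form 1 group without a control population, and no other treatment is given.

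The 3 libraries, A, B and D, were pools of both sexes from ganglia of levels T11 to S1. Library A held 100 ganglia of 5 embryos, library B 100 ganglia of 6 embryos and library D 80 ganglia of 4 embryos. Their total counts lay between 20181558 and 29061086. All 10 sensory neuron markers, among them Tubb3, Isl1, Pou4f1 and Avil, were above 10 TPM (a level corrected for gene length and scaled to the same total in each library), with a summed level of 37476 to 42945 TPM. Glial and Schwann precursor markers summed to 490 to 880 TPM (7 of 9 at 1 TPM or more), nearly all of it S100b and Fabp7. Mesenchyme and pericyte markers summed to 19.5 to 71.6 TPM (6 of 9 at 1 TPM, Twist1 at 0 in A), macrophage markers to 10.3 to 23.8 TPM (4 of 7), endothelial markers to 4.96 to 5.81 TPM (1 of 8) and erythroid markers to 74.8 to 304 TPM. All other genes of the glial, mesenchyme, macrophage and endothelial lists had counts in every library. Of 6 spinal cord markers, Olig2, Mnx1, Lbx1 and Nkx6-1 had no counts in any library. Pax2 had 0, 1 and 2 counts. Slc5a7, of the same list, was present at 9.28 TPM in A, 4.73 TPM in B and 4.39 TPM in D. In a sorted pool, fewer cells of a type and less RNA per cell cannot be told apart.

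Semaphorins of class 3 are secreted, whereas those of classes 4 to 7 are held at the membrane. Secreted semaphorins mostly bind neuropilins, which have only a short cytoplasmic tail and pass the signal on through class A plexins. Membrane-bound semaphorins bind plexins directly, and the cytoplasmic part of a plexin acts on small GTPases and so on the actin and microtubule skeleton. In embryonic sensory ganglia the system is known for the repulsion of nociceptive axons by Sema3a, which acts through Nrp1.

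Sequences of the neuropilins are shown first, because the level of this pair differed more than that of any other pair of neighbours within a class. The first are the ends of the coding sequence, which in many neuropilin transcripts encode the PDZ-binding tail that the adapter GIPC1 recognises. The last 33 coding bases of GENCODE M21 transcripts (GRCm38, plus strand) are given 5′ to 3′, with the 3 codons before the stop codon in capitals. They lie at chr8:128502782-128502814 in Nrp1 and, for the alternative ends of Nrp2, at chr1:62815605-62815637 and chr1:62795957-62795989.
Nrp1: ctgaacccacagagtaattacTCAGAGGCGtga
Nrp2 downstream end: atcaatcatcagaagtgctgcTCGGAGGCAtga
Nrp2 upstream end: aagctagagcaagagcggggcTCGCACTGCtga
The codons in capitals read Ser-Glu-Ala in Nrp1 and at the downstream end of Nrp2, and Ser-His-Cys at its upstream end. Nrp1 had 1 complete coding transcript, and of the 6 of Nrp2, 4 had the downstream end and 2 the upstream end. The deposited counts are per gene and do not separate these Nrp2 forms.

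The second are the 200 bases before the start of each gene in the deposited tables (RefSeq sequence, GRCm38.p6, plus strand), shown to compare the regions from which the 2 genes start. Capitals mark the GC box, GGGCGG, or its reverse complement CCGCCC. These lie at chr8:128358873-128359072 for Nrp1 and chr1:62703085-62703284 for Nrp2.
Nrp1: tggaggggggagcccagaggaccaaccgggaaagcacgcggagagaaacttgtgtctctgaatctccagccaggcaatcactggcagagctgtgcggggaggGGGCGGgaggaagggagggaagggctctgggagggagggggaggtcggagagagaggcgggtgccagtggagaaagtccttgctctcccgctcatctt
Nrp2: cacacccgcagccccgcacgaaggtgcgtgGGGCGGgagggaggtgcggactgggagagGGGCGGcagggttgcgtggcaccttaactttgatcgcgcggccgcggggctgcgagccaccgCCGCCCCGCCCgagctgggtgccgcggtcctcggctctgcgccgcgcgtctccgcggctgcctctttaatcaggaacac
The Nrp1 window held 1 match and 8 CpG dinucleotides, and the Nrp2 window held 4 matches, 2 of them overlapping, and 27 CpG dinucleotides. Of 32851 RefSeq start regions of the same length, 31.0% held at least 1 match and 3.23% at least 4. Those regions lie directly before the RefSeq start, which for Nrp2 is at 62703317, downstream of the end of its window. The gene with the lower RNA level therefore had the window richer in this motif. A match describes the letters only.

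Nrp1, the co-receptor of Sema3a and of VEGF, was the highest of the 31 genes in every library. It stood at 386 TPM in A, 259 TPM in B and 208 TPM in D, from 17285, 12169 and 15910 counts (284 ± 91.6 TPM, SD, n = 3), and ranked 606 among the 21474 protein-coding genes. Nrp2, which prefers Sema3f, stood at 0.390 TPM in A, 1.75 TPM in B and 0.659 TPM in D, from 35, 165 and 101 counts (0.933 ± 0.720 TPM, SD, n = 3). The highest Nrp2 value lay far below the lowest Nrp1 value. Within libraries, Nrp1 exceeded Nrp2 359-fold (log2 ratio 8.49 ± 1.38), in 3 of 3 libraries. The log2 ratio was 7.76 without A and 9.13 without B, so the size of the difference moved with single libraries. The exact permutation test over signs, two-sided, gave p = 0.25, the smallest value that 3 libraries allow. None of the 6 ratios tested here could pass 0.05, and each had an exact p and a Benjamini-Hochberg adjusted p of 0.25.

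**Figure D1:**
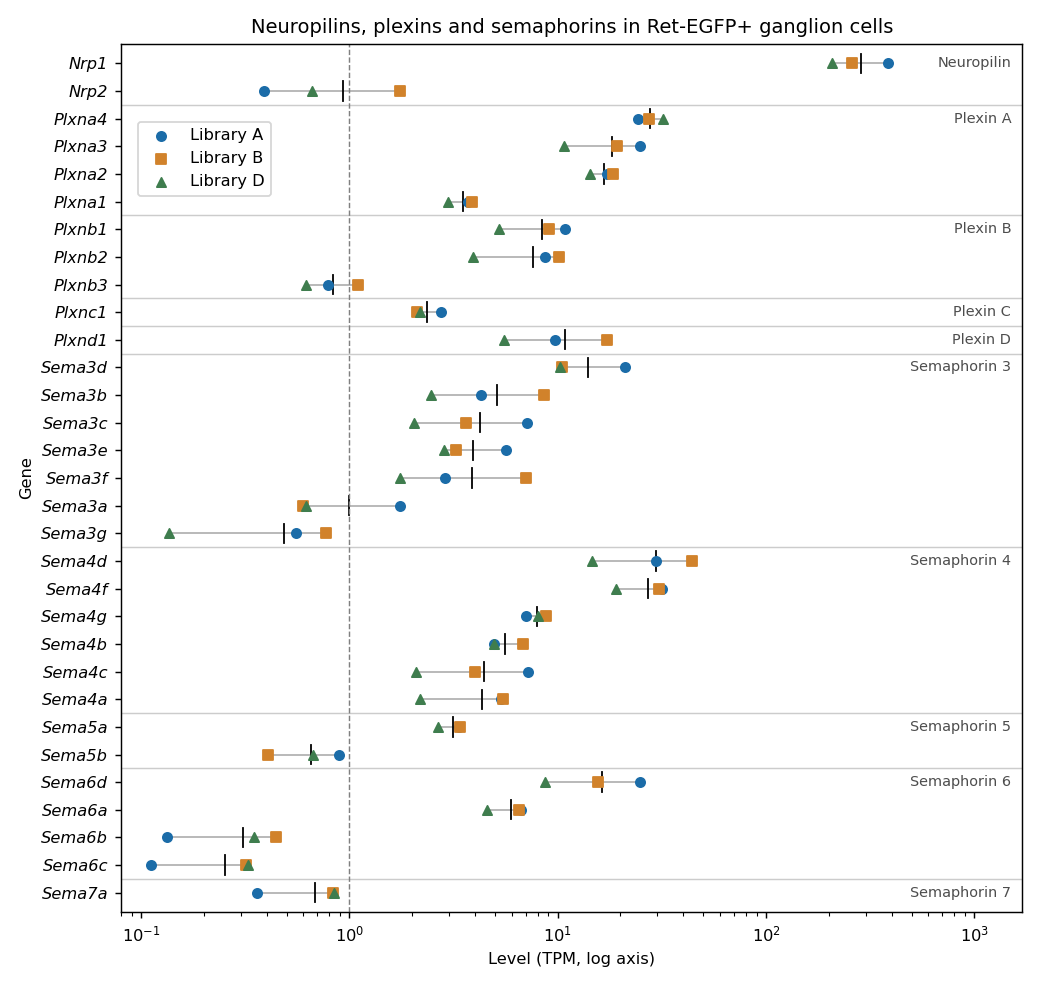
Level of each of the 31 genes in TPM (log axis) in libraries A, B and D (points), with the mean over libraries as a black tick and 1 TPM as a dashed line. Nrp1 stands alone above 200 TPM, while the other genes lie below 50 TPM in each library.

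Of the 11 receptor genes, 9 reached a mean of 1 TPM and 5 reached 10 TPM. Of the 20 semaphorin genes, 14 reached 1 TPM and 4 reached 10 TPM. Together 23 of 31 genes were at 1 TPM or more, against 55.3% of all protein-coding genes, and 9 were at 10 TPM or more, against 32.1%. The median of the gene means was 4.43 TPM for the 31 genes and 2.05 TPM for all protein-coding genes. Plxnc1 at 2.35 TPM was the lowest gene above the 1 TPM line, and Sema3a at 0.992 TPM was the highest below it. No gene was without counts in a library: the lowest value was 4 counts, of Sema6b in A, and 27 of 31 genes had at least 10 counts in every library.

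The class A plexins, which carry the signal of secreted semaphorins, had the highest summed level of the plexin classes (66.1 ± 5.56 TPM, SD, n = 3). Plxna4 (chromosome 6, 32144268 to 32588192) stood at 24.1 TPM in A, 27.4 TPM in B and 31.8 TPM in D (27.8 ± 3.86 TPM, SD, n = 3). It was highest in D. Plxna3, on the X chromosome (74329066 to 74344689), stood at 24.8 TPM in A, 19.1 TPM in B and 10.7 TPM in D (18.2 ± 7.10 TPM). Plxna2 (chromosome 1, 194619829 to 194816869) was even across libraries, at 17.2, 18.4 and 14.2 TPM (16.6 ± 2.14 TPM). Neighbours in this order did not differ beyond their spread: the log2 ratio of Plxna4 to Plxna3 was 0.69 ± 0.82 and that of Plxna3 to Plxna2 was 0.06 ± 0.47, each within 1 SD of 0. Plxna4 was nevertheless above Plxna2 in 3 of 3 libraries. Plxna1 lay lower, at 3.51 ± 0.471 TPM. Plxna2 exceeded it 4.73-fold, with nearly the same ratio in each library (log2 2.24 ± 0.02). Of the exon bases of Plxna1, 10.7% are shared with an antisense gene, Gm26811, which had at most 5 counts in a library. Plxna4 shares 0.854% of its exon bases with the antisense gene Plxna4os3, which had no counts.

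Plexins of the other classes had means below those of Plxna4, Plxna3 and Plxna2, but Plxnd1, Plxnb1 and Plxnb2 lay above Plxna1. Plxnd1, which binds Sema3e without a neuropilin, stood at 9.65 TPM in A, 17.2 TPM in B and 5.53 TPM in D (10.8 ± 5.90 TPM). Library B was highest, and the values spread 3.10-fold. Plxnb1, the receptor of Sema4d, stood at 10.9, 9.05 and 5.20 TPM (8.37 ± 2.89 TPM), and Plxnb2 at 8.67, 10.1 and 3.92 TPM (7.58 ± 3.25 TPM). Both class B plexins were lowest in D, and they did not differ beyond their spread (log2 ratio 0.19 ± 0.31). Plxnb3 stayed at 0.838 ± 0.245 TPM, 8.61-fold below Plxnb2 in 3 of 3 libraries. Plxnc1, the plexin that binds Sema7a, was even at 2.76, 2.12 and 2.17 TPM (2.35 ± 0.358 TPM). Summed over members, class A exceeded class B 4.15-fold (log2 2.05 ± 0.49, 3 of 3 libraries). The log2 ratio was 1.24 with Plxna4 left out, an alternative chosen after the values were seen.

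Among the ligands, class 4 was the most abundant class, with a summed level of 78.9 ± 25.2 TPM (SD, n = 3). Sema4d, a membrane protein that can be shed, led all semaphorins in the mean. It stood at 29.6 TPM in A, 44.3 TPM in B and 14.6 TPM in D (29.5 ± 14.9 TPM, chromosome 13, 51701246 to 51793747). Sema4f (chromosome 6, 82911885 to 82939769) stood at 31.7, 30.5 and 19.1 TPM (27.1 ± 6.95 TPM). Sema4f was above Sema4d in A and D and below it in B, so neither led in every library (log2 ratio of Sema4d to Sema4f 0.02 ± 0.47). The remaining class 4 genes lay between 4.33 TPM (Sema4a) and 7.96 TPM (Sema4g) in the mean. Sema4g was the steadiest of them, at 7.01, 8.81 and 8.04 TPM.

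Of the secreted class 3, Sema3d (chromosome 5, 12383166 to 12588943) was the leading member, at 20.9 TPM in A, 10.5 TPM in B and 10.3 TPM in D (13.9 ± 6.10 TPM). It took 43.4 ± 11.2% of the class sum. Sema3b stood at 4.28, 8.60 and 2.45 TPM, so library B held 3.50 times the level of D and nearly reached Sema3d there. Sema3c (7.09, 3.62 and 2.05 TPM), Sema3e (5.62, 3.25 and 2.83 TPM) and Sema3f (2.88, 7.03 and 1.75 TPM) could not be ordered, since neighbours in the order changed places between libraries. Sema3a, the best studied repellent of sensory axons, was scarce at 1.75, 0.602 and 0.621 TPM, from 86, 31 and 52 counts. Sema3g stayed at 0.488 ± 0.324 TPM. Along the genome, Sema3d, Sema3a, Sema3e and Sema3c lie on chromosome 5, and Sema3b and Sema3f lie 72272 bases apart on chromosome 9.

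Class 6 was led by Sema6d (chromosome 2, 124089969 to 124667770), at 24.9 TPM in A, 15.5 TPM in B and 8.68 TPM in D (16.4 ± 8.17 TPM). Sema6a followed at 6.69, 6.54 and 4.59 TPM (5.94 ± 1.17 TPM), 2.56-fold lower in 3 of 3 libraries. The other members of the class had few counts: Sema6b had 4, 14 and 18 and Sema6c had 5, 15 and 25. Sema6c shares 47.9% of its exon bases with a gene on the same strand that has no counts and no symbol, ENSMUSG00000101384, so its level is uncertain. Sema5a, at 3.37, 3.39 and 2.67 TPM, exceeded Sema5b (0.894, 0.408 and 0.666 TPM) 5.01-fold in 3 of 3 libraries. Sema7a, which has a lipid anchor in place of a membrane span, stood at 0.681 ± 0.278 TPM from 9, 22 and 36 counts.

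Receptors exceeded ligands in summed level 2.79-fold (log2 ratio 1.56 in A, 1.19 in B and 1.68 in D, 1.48 ± 0.26, 3 of 3 libraries, exact sign-flip p = 0.25). The receptor sum was 489 TPM in A, 369 TPM in B and 286 TPM in D, and the ligand sum was 165, 162 and 89.2 TPM. This direction rested on Nrp1, which took 74.0 ± 4.52% of the receptor sum. With Nrp1 left out, an alternative added after the levels were seen, the log2 ratio was -0.48 ± 0.25, and ligands were higher. The median gene gave the same direction as the full sum: receptors had a median of 8.33 ± 2.72 TPM and ligands one of 4.07 ± 1.53 TPM (2.08-fold, log2 1.06 ± 0.13, 3 of 3 libraries, exact p = 0.25).

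Within the receptors, neuropilins exceeded plexins 2.90-fold in summed level (log2 ratio of plexins to neuropilins -1.54 ± 0.34, 3 of 3 libraries, exact p = 0.25). As CPM, the count scaled to library size without length correction, this log2 ratio was -0.70. Every plexin gene has a greater deposited length (6493 to 15093 bases) than Nrp1 (5907 bases). Nrp1 alone took 99.6 ± 0.288% of the neuropilin sum. Within the ligands, membrane-bound semaphorins of classes 4 to 7 exceeded the secreted class 3 by 3.31-fold (log2 ratio of class 3 to the others -1.73 ± 0.20, 3 of 3 libraries, exact p = 0.25). Membrane-bound genes number 13 and class 3 genes 7, so the sums differ also by the number of genes. As the mean of log2(TPM + 0.1) over members, the log2 difference was -0.28 ± 0.41, within 1 SD of 0, and it was 0.11 in A, so the direction did not hold in every library on that scale.

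**Figure D2:**
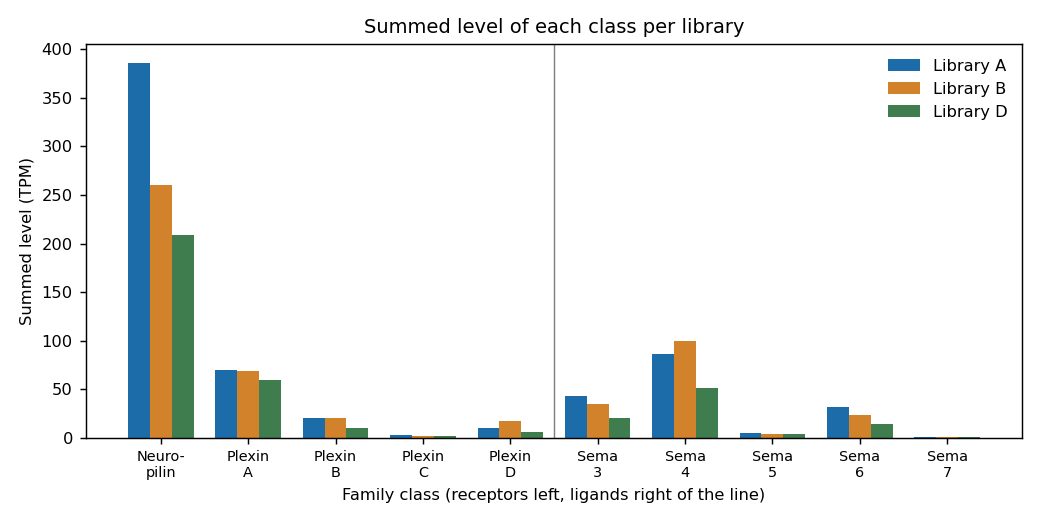
Summed level in TPM (linear axis from 0) of each receptor class (left of the line) and ligand class (right) in libraries A, B and D. The neuropilin bars, between 209 and 386 TPM, are the tallest in every library, followed by class 4 semaphorins or class A plexins.

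Known ligands and receptors were set side by side as levels in the same cells, as a description without a test. Nrp1 was 317-fold above Sema3a (log2 8.31 ± 0.49). For the other neuropilin the order was the reverse, with Sema3f 4.29-fold above Nrp2 (log2 2.10 ± 0.74). Sema4d exceeded its receptor gene Plxnb1 3.35-fold (log2 1.74 ± 0.48), whereas Plxnd1 exceeded Sema3e 2.61-fold (log2 1.38 ± 0.89) and Plxnc1 exceeded Sema7a 3.68-fold (log2 1.88 ± 0.92). Sema6a lay below both of its plexins, 2.82-fold below Plxna2 and 4.72-fold below Plxna4, whereas Sema6d lay 4.29-fold above Plxna1 (log2 2.10 ± 0.61). Each of these orders held in 3 of 3 libraries. The pairs were picked with the levels known, and other ligand and receptor pairs were not compared. RNA of a pool does not show whether both genes of a pair were in the same cell.

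Partners of these receptors were read from 5 lists. Beyond the highest and lowest of each, those named were picked for their known role after the values were seen. Of 11 co-receptors and alternative receptors, 6 were at 1 TPM or more. Itgb1, the beta-1 integrin that also binds Sema7a, stood at 191, 158 and 81.7 TPM. L1cam, the adhesion molecule that joins Nrp1 in the response to Sema3a, stood at 138, 152 and 60.8 TPM. Both were lowest in D. Among the low genes of this list were Itga1, the integrin partner for Sema7a (0.307 ± 0.128 TPM), and the VEGF receptors Kdr (0.207 ± 0.151 TPM) and Flt1 (0.0732 ± 0.0457 TPM). The high Nrp1 level therefore stood beside very low levels of Kdr and Flt1.

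Of 15 cytoplasmic effectors, 13 reached 1 TPM. Cdk5, a kinase in the response to Sema3a, was even at 293, 296 and 274 TPM, and Gsk3b, another kinase of that response, stood at 182, 243 and 235 TPM. Gipc1, the adapter for the tail shown above, stood at 95.2 TPM in A, 133 TPM in B and 40.1 TPM in D. Mical2 was lowest at 0.395 ± 0.0849 TPM, while Mical1 and Mical3, oxidoreductases that take actin filaments apart, stood at 16.1 ± 7.54 and 13.5 ± 2.47 TPM. All 7 small GTPases were at 1 TPM or more, from Rhoa (184 ± 48.7 TPM) and Rap1b (72.0 ± 3.91 TPM) to Rras (5.41 ± 0.463 TPM).

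All 10 CRMP and actin targets reached 1 TPM, and 9 reached 10 TPM. Dpysl2, which encodes the CRMP protein first linked to Sema3a, stood at 3456, 5347 and 4011 TPM, and Cfl1, the actin-severing cofilin, at 2788, 3259 and 2225 TPM. Of the kinases that phosphorylate cofilin, Limk2 stood at 119 ± 48.7 TPM and Limk1, the lowest of the list, at 1.76 ± 0.608 TPM. All 5 proteases reached 1 TPM. Adam10 (64.5 ± 6.10 TPM) and Adam17 (8.11 ± 3.90 TPM) were highest, and Pcsk5 (1.08 ± 0.392 TPM) was lowest. Furin, which cleaves secreted semaphorins, was low and even at 1.11, 1.29 and 1.17 TPM.

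**Figure D3:**
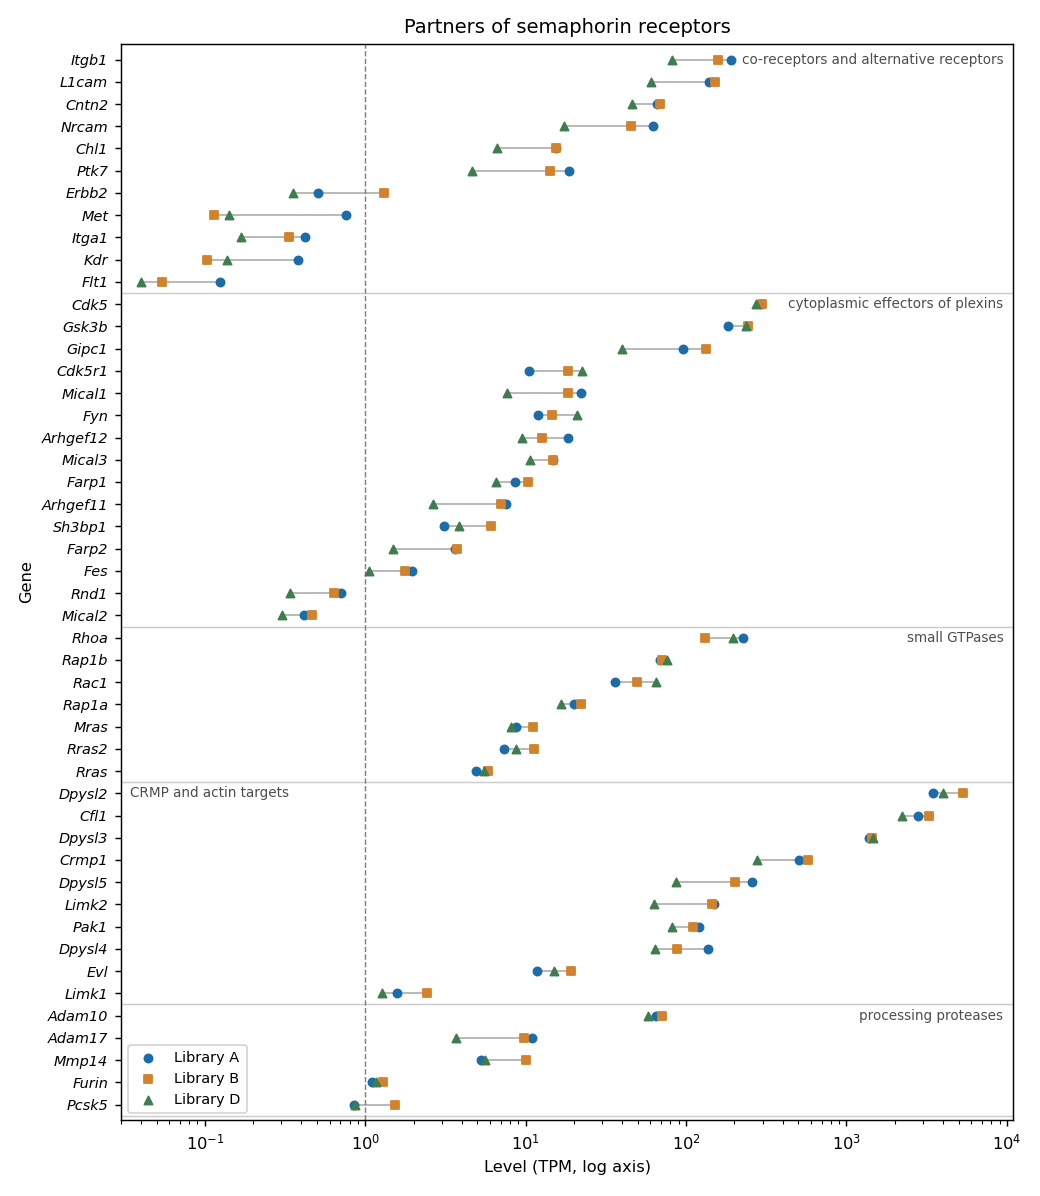
Level in TPM (log axis) of the genes of the 5 partner lists in libraries A, B and D (points), with 1 TPM as a dashed line. The CRMP and actin targets Dpysl2, Cfl1 and Dpysl3 lie between 1385 and 5347 TPM, and Kdr and Flt1 lie below 1 TPM in every library.

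In TPM, 22 of the 31 genes were lowest in library D. TPM was lower in D over all genes: the median log2 difference between D and the mean of A and B was -0.33 for the 13530 genes tested below and -0.60 for the 27 of the family among them. Library differences were therefore tested on counts, scaled with edgeR's TMM method, where the median of all genes differed in D by -0.00489 on the log2 scale. On that scale 14 of 27 genes were lowest in D, against 38.8% of all genes tested, and their median log2 difference in D was -0.27. Highest in A were 13 of 27 (34.3% of all genes), in B 12 (28.7%) and in D 2 (37.0%). With the trend in gene length removed, these numbers were 9, 12 and 6, and 12 genes were lowest in D, with a median log2 difference of -0.07. The position of D within the family thus moved with that correction.

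No gene of the family was called as more variable between libraries than genes of like level. In edgeR's goodness-of-fit test with Benjamini-Hochberg adjustment over all genes tested, 0 of 27 were called, against 0.177% of all genes. Unadjusted p-values were under 0.05 for 2 of 27 (7.41%), against 6.11% of all genes, and DESeq2 marked 0 of 27 as dispersion outliers. The 4 genes not tested, Sema3g, Sema6b, Sema6c and Sema7a, had too few counts. In simulated data with the same library sizes, the test recovered 0% of genes changed 2-fold in 1 library, 23.9% of those changed 4-fold and 89.4% of those changed 8-fold. Changes of up to 4-fold were thus mostly missed at this number of libraries. Genes of low level, such as Nrp2 (mean 4.44 CPM), Sema3f (5.22 CPM) and Sema3a (2.52 CPM), were left out when the genes to change were drawn. The recovery therefore does not cover them. The simulated counts also had the same dispersion for every gene, whereas the test let it follow the level. The median range across libraries was 1.83-fold for the 27 genes and 1.60-fold for all genes tested.

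The genes with an unadjusted p under 0.05 were Nrp2 (log2 difference 1.59 in B and -1.59 in A, edgeR adjusted p = 0.64) and Sema3f (1.46 in B, edgeR adjusted p = 0.78). Without the length trend, the edgeR adjusted p of Nrp2 was 0.28. Over the other settings of the test, the smallest edgeR adjusted p of any gene of the family lay between 0.25 (without library D) and 0.96 (without library B). Sema3b (1.23), Plxnd1 (1.07) and Sema4d (0.93) also lay highest in B, on the log2 scale against the mean of A and D. In B the mesenchyme and pericyte markers summed to 71.6 TPM, against 19.5 TPM in A and 20.5 TPM in D. The collagens Col1a1 (28.4 TPM), Col1a2 (14.4 TPM) and Col3a1 (13.8 TPM) carried most of the sum in B. Lum was nearly as high in D (5.92 TPM) as in B (5.99 TPM), Rgs5 was highest in D and Pdgfra was highest in A. The endothelial markers did not move with them (5.81, 5.41 and 4.96 TPM in A, B and D). Sema3a (1.30), Sema3c (1.20), Sema4c (1.12), Sema6d (0.93) and Sema3d (0.84) lay highest in A. Macrophage markers summed to 23.8 TPM in A, against 13.7 TPM in B and 10.3 TPM in D. C1qb (11.3 TPM) and Tyrobp (6.55 TPM) carried most of the sum in A. C1qa was no higher in A (1.65 TPM) than in B (1.69 TPM), and Ptprc was low throughout (0.111, 0.106 and 0.0827 TPM in A, B and D). The part of these cell types in the differences was not tested. At the other end, Sema5a (range 0.02 on the log2 scale), Plxna1 (0.07), Plxna2 (0.11) and Sema6a (0.20) had nearly the same scaled level in each library. The genes in this paragraph were singled out after their values were seen.

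**Figure D4:**
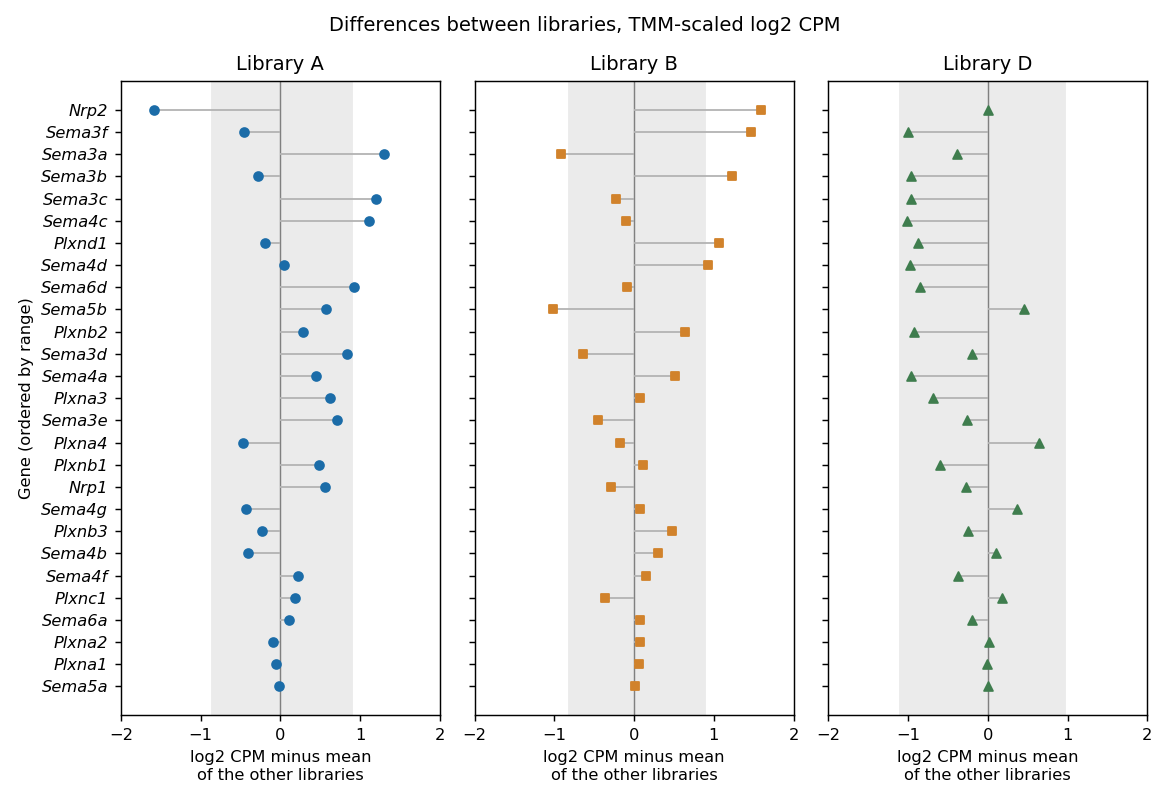
Difference of each of the 27 tested genes between 1 library and the mean of the other libraries, in log2 CPM after TMM scaling. The grey band spans the 5th to the 95th percentile of all 13530 genes tested. Nrp2, Sema3f, Sema3b, Plxnd1 and Sema4d lie above the band in B, Sema3a, Sema3c, Sema4c and Sema6d lie above it in A, Nrp2 lies below it in A, Sema5b and Sema3a lie below it in B, and none of the 27 genes lies beyond it in D.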

How the data were processed

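The submitters' processing notes name Subread, featureCounts 1.4.5 and GRCm38.p2. Whether counting used strand, and how multi-mapping reads were handled, is not given in the sources used here. The authors deposited unnormalized counts, exon coordinates and a length for each Ensembl gene. They also deposited CPM, the count scaled to the library total, and RPKM, which is CPM divided by the deposited length. Per the labels' protocols, 10 ng of RNA was amplified with 12 PCR cycles for the library, with no molecular identifiers described. TPM was computed from deposited counts and lengths. Symbols came from GENCODE M21 (40254 of 41388 genes matched), and 34 symbols matched the name rule, 3 of them antisense RNAs that were left out. Of 465 pairs of family members, 15 shared 40 or more identical bases in a row. The longest run was measured in only part of those 15 pairs, where it was at most 47 bases.

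Each of the 6 ratios was formed per library, and its signs were permuted exactly (two-sided). For variation between libraries, R 4.3.3 and edgeR 4.0.16 were used (TMM, filterByExpr, intercept-only fit, trended dispersion, deviance against chi-square, Benjamini-Hochberg adjustment at 0.05 over 13530 genes), after a check on simulated data with 200 changed genes. The quasi-likelihood test needs more than 1 group. A pair of neighbours in level was called beyond its spread when the higher gene was higher in 3 of 3 libraries and the mean log2 ratio exceeded its SD. This held for 5 of 10 pairs among receptors and 4 of 19 among ligands. The rule for naming genes gave values per library for the 2 leading genes of each class and every gene at 10 TPM or more, and named the 2 highest and the lowest partner of each list. Other tools were DESeq2 1.42.0, Python 3.11.15, numpy 2.4.6, pandas 2.3.3, scipy 1.17.1 and matplotlib 3.10.9. The members, lists and comparisons were chosen with earlier results of these data known.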

Additional observations from a re-analysis of the deposited data

How the results depend on the processing

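All 29 alternative computations of the 6 ratios (CPM, means of log2 levels, expressed members only, each library left out) kept the direction of the mean, but the mean of log2 levels for class 3 against membrane-bound semaphorins lay within 1 SD of 0. Of others added after the values were seen, leaving out Nrp1 turned the log2 ratio of receptors to ligands to -0.48 and that of plexins to neuropilins to 6.95, by its own construction. Leaving out Sema3d gave -2.56 for class 3 against membrane-bound semaphorins. The number of genes at 1 TPM or more lay between 23 and 28 under every threshold tried and with each library left out. No gene of the family was called as varying under any setting run. Over all genes, 24 were called in the main test, 55 with the length trend removed, 4 as DESeq2 dispersion outliers, and 2 (without B) to 27 (without D) with a library left out, with 7 without A; the cause was not tested. No paired comparison between groups was possible because there is 1 group. Intervals between libraries rest on 3 pools, which limits every SD given, and genes with fewer than 10 counts in a library (Sema3g, Sema6b, Sema6c and Sema7a) have levels set by few reads.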
